A study of Mus musculus with 4 samples.

Results

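This account is about 10 genes of the NRF2 pathway and of glutathione defence, measured by single-nucleus ATAC-Seq (scATAC-Seq) in mouse hepatocytes: Nfe2l2, Keap1, Nqo1, Hmox1, Gclc, Gclm, Txnrd1, Srxn1, Gstm1 and Gstp1. They were chosen by name for their role in the pathway, and are 10 of 20780 protein-coding autosomal genes. All 10 were among the 15061 genes with a mean of at least 5 CPM (counts per 1000000 counts of the library) over the libraries, which form the background below. In scATAC-Seq the Tn5 transposase cuts open chromatin in isolated nuclei, and barcodes assign the fragments to nuclei. A gene's level here is the sum of counts in all peaks that overlap the gene body or the 2 kb upstream of it, over all nuclei (barcodes with at least 1000 counts) of a library, in CPM. It describes open chromatin, not RNA.

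There were 4 libraries of liver hepatocytes, 1 per time point: undamaged liver (PHx 0 h) and liver taken 48, 72 and 96 h after PHx. In this operation, partial hepatectomy, most of the liver is cut away, and the hepatocytes that remain divide until the organ has regrown. The mice were male C57BL/6J animals, aged 10 to 12 weeks per the labels, on a normal diet, and the labels name no transgene and no agent other than surgery. The 0 and 48 h libraries were each made from part of 1 hepatocyte preparation from 1 mouse, and whether those of 72 and 96 h were pooled from several animals was not stated in the sources at hand. With 1 library per time point there were no replicates, so no test between time points was possible, and time and library cannot be told apart. The bounds in parentheses after a value are those of its exact 95% interval and cover counting error only.

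NRF2, the product of Nfe2l2, is a transcription factor that is kept low by KEAP1, an adaptor that hands it to a CUL3 ubiquitin ligase. When oxidants or electrophiles modify KEAP1, NRF2 accumulates, pairs with a small MAF protein and binds the antioxidant response element, a short DNA motif that begins with TGA and ends with GC, at genes for glutathione synthesis, the thioredoxin system, quinone and heme metabolism and glutathione S-transferases. In liver this programme clears reactive oxygen species and drug metabolites, and many of the enzymes it controls are higher in pericentral hepatocytes, around the central vein.

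The libraries differed in depth. The nuclei numbered 3977, 3892, 4256 and 3224 at 0, 48, 72 and 96 h, with 136582768, 62000846, 24724883 and 14935507 counts and a median of 26005, 11629, 4841 and 3681.5 counts per nucleus. Peaks had been called in each library on its own, and covered 153.6, 179.0, 141.2 and 60.9 Mb. Between 833 and 1066 barcodes of a library also occurred in another library. All 10 hepatocyte markers were open in every library, with a summed level of 3896 to 5689 CPM, against 234 to 393 CPM for 10 endothelial, 138 to 254 CPM for 8 stellate and mesenchymal, 51.7 to 81.3 CPM for 8 myeloid, 46.6 to 70.1 CPM for 6 cholangiocyte and 20.6 to 77.3 CPM for 5 lymphoid markers. The stellate and mesenchymal sum was lowest at 0 h and highest at 72 h, with Lhx2 alone at 35.2, 82.1, 97.8 and 53.2 CPM at 0, 48, 72 and 96 h. The lymphoid sum was highest at 48 h because of Cd79a, which had 44.5 CPM there and 0 CPM at 0, 72 and 96 h. A gene's sum follows how much of it was called as peak: across all genes the log2 ratio of CPM and the log2 ratio of covered length had correlations of 0.883, 0.912 and 0.844 at 48, 72 and 96 h against 0 h, given as a description over genes of the same libraries. Where they differ, changes of the 10 genes below are therefore given also over merged regions, in which the touching or overlapping peaks of the 4 libraries were joined and every library was summed over all its peaks there. Reads between peaks are not in the tables, so ground that a library did not call counts as 0.

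The summed level over Hmox1 and Srxn1 was higher at 48 h and 72 h than at 0 h, on longer peaks and with fewer counts per kb, that of Gstp1 was far lower at 72 h than at 48 h, and those of Nfe2l2, Gclc, Gclm and Gstm1 stayed within 1.5-fold of 0 h at every time. At 48 h, 2 of 10 genes (Hmox1 and Srxn1) were at least 1.5-fold higher and none was lower, beside 21.7% of all genes past 1.5-fold in either direction. At 72 h the same 2 genes were higher and 2 (Nqo1 and Gstp1) were lower, beside 36.8% of all genes. At 96 h none was higher and the same 2, Nqo1 and Gstp1, were lower, beside 36.4%. By summed CPM these counts lie close to or below the background. With binarised counts, where a peak counts once per nucleus, 3, 7 and 5 of the 10 genes were past 1.5-fold at 48, 72 and 96 h, beside 14.9%, 31.7% and 30.6% of all genes. That cap acts by depth and by how many peaks cover a gene, and both differed between the libraries. Its part in these counts was not tested. The median log2 ratio of the 10 genes was 0.07, -0.11 and -0.14 at 48, 72 and 96 h, and that of all genes -0.04, -0.01 and 0.08. Over merged regions 2 genes were higher at 48 h (background 18.9%), Hmox1 was higher and Gstp1 lower at 72 h (background 33.7%), and Gstp1 was lower at 96 h (background 31.7%). Summed counts cannot tell fewer open nuclei from less opening in each nucleus.

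**Figure D1:**
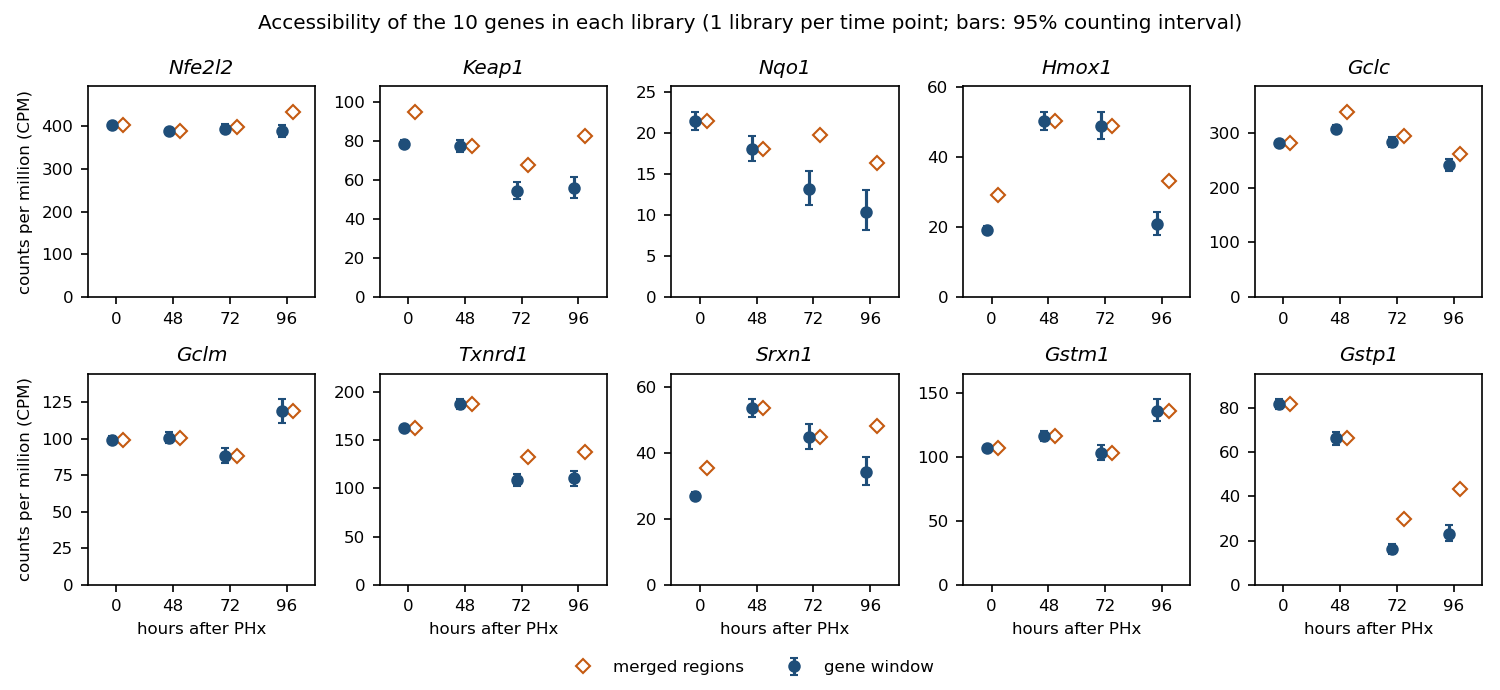
Levels of the 10 genes (CPM, vertical axis from 0) in the 4 libraries (hours after PHx). Filled points are the gene window with its 95% counting interval and open diamonds the merged regions. Hmox1 and Srxn1 are highest at 48 h, and Gstp1 falls from 66.3 CPM at 48 h to 16.0 CPM at 72 h.

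Of the regulators, Nfe2l2 itself varied little in its summed level. It lies on chromosome 2 (chr2:75675513-75704641, minus strand, mm10). Its level was 403 CPM at 0 h (398, 408), 389 at 48 h (382, 396), 394 at 72 h (383, 405) and 389 at 96 h (375, 404). The intervals of 48, 72 and 96 h overlap one another, those of 72 and 96 h also overlap that of 0 h, and the log2 ratios to 0 h were -0.05, -0.03 and -0.05. Over merged regions they were -0.05, -0.02 and 0.11. With binarised counts they were 1.01, 1.59 and 1.70, but there the 1 broad peak of 0 h counts at most once per nucleus. Each of the shorter peaks of the later libraries counts on its own, so these ratios do not compare like with like. At 0 h the whole gene lay under 1 peak of 38819 bp that ran from position -3390, counted in bp from the 5' end, to past the 3' end. At the later times the window touched 2, 2 and 3 shorter peaks, and at 72 and 96 h further short peaks lay on the same ground outside it. These peaks also touched Hnrnpa3, a neighbouring gene for an RNA-binding protein, at 0, 48 and 72 h, and its share of the counts could not be separated. Keap1 (chr9:21229730-21239361, minus strand) stood at 78.5, 77.3, 54.4 and 55.8 CPM at 0, 48, 72 and 96 h. It was at a log2 ratio of -0.53 (-0.65, -0.41) at 72 h and -0.49 (-0.64, -0.35) at 96 h, short of 1.5-fold, and over merged regions the ratios were -0.29, -0.49 and -0.20. With binarised counts Keap1 stood at -0.60 at 72 h, past 1.5-fold lower. The peak at its promoter moved differently, from 36.7 CPM at 0 h through 31.7 and 27.7 CPM to 40.2 CPM at 96 h. These are log2 ratios of -0.21, -0.41 and 0.13, beside medians of -0.18, -0.10 and 0.21 for the promoters of all genes. The fall over the window at 96 h went with the peak at the 3' side of the gene, 26.1 CPM at 0 h and 16.3 CPM at 72 h, of which nothing was called inside the window at 96 h.

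Hmox1 encodes heme oxygenase 1, which breaks down heme and is among the best known NRF2 targets. It lies on the plus strand of chromosome 8 (chr8:75093621-75100589). Its level was 19.3 CPM at 0 h (18.3, 20.4), 50.4 at 48 h (47.9, 52.9), 48.9 at 72 h (45.1, 53.0) and 20.8 at 96 h (17.6, 24.3). The values of 48 and 72 h overlap, as do those of 0 and 96 h, and the 2 pairs lie far apart. Against 0 h, this gave log2 ratios of 1.38 (1.28, 1.49) for 48 h, 1.34 (1.20, 1.48) for 72 h and 0.11 (-0.14, 0.35) for 96 h. The gain came with peak over the gene body. At 0 h a promoter peak of 1751 bp was called, with a separate peak of 1137 bp and 9.77 CPM beyond the 3' end. At 48 h 1 peak of 11709 bp ran across the whole gene, from -1076 to 10632 bp, so that promoter and body could not be read apart. At 72 h the promoter had its own peak again, of 14.6 CPM, and a peak of 7811 bp and 33.4 CPM covered the ground from 2566 to 10376 bp. At 96 h the body was not called, the promoter peak had 799 bp and the peak beyond the 3' end had 635 bp with 12.4 CPM. Over merged regions, which count the peak beyond the 3' end in every library, the log2 ratio was 0.79 (0.70, 0.89), 0.75 (0.62, 0.88) and 0.19 (-0.01, 0.38). Per kb of covered peak the level at 48 and 72 h was below that of 0 h (4.30 and 5.24 against 11.02 CPM per kb).

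The 2 peaks upstream of Hmox1 that were called in all 4 libraries, outside the window counted above, held the letters of the antioxidant response element and did not move in the same way. A further upstream peak, of 494 bp and 1.66 CPM with 1 match of TGACNNNGC at -6264 bp, was called at 48 h alone. The stretches below are from GRCm38.p6 on the minus strand, with each match of TGACNNNGC in capitals, and are shown because the matches lie close together. The first is chr8:75089688-75089768, 3.9 kb upstream, and the second chr8:75083939-75084024, 9.7 kb upstream.
Hmox1 near upstream peak: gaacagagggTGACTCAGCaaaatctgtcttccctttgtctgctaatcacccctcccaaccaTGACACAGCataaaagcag
Hmox1 far upstream peak: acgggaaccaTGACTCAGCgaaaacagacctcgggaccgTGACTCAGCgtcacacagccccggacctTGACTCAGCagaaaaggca
The near peak, 2125 to 2791 bp long, had 22.0, 24.1, 19.7 and 20.5 CPM at 0, 48, 72 and 96 h, and the log2 ratios of 0.13, -0.16 and -0.11 to 0 h all had intervals that held 0. The far peak had 13.4, 12.0, 8.21 and 11.3 CPM, a log2 ratio of -0.16 (-0.34, 0.01) at 48 h and of -0.71 (-1.02, -0.41) at 72 h. Neither peak was higher at 72 h, when the gene body was. TGACNNNGC alone is common: 53.8% of the windows of 1000 bp on either side of a gene's 5' end hold it. The narrower form TGANTCAGC, which contains the AP-1 motif TGANTCA, occurs in 6.01% of those windows, in 6.53% of 0 h peaks of 1000 to 2000 bp and in 10.8% of those of 2000 to 3000 bp, both strands searched. Only 11 of 24923 peaks of 1000 to 2000 bp at 0 h, the length class of the far peak, hold TGANTCAGC at least 3 times. A match describes letters and not binding.

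**Figure D2:**
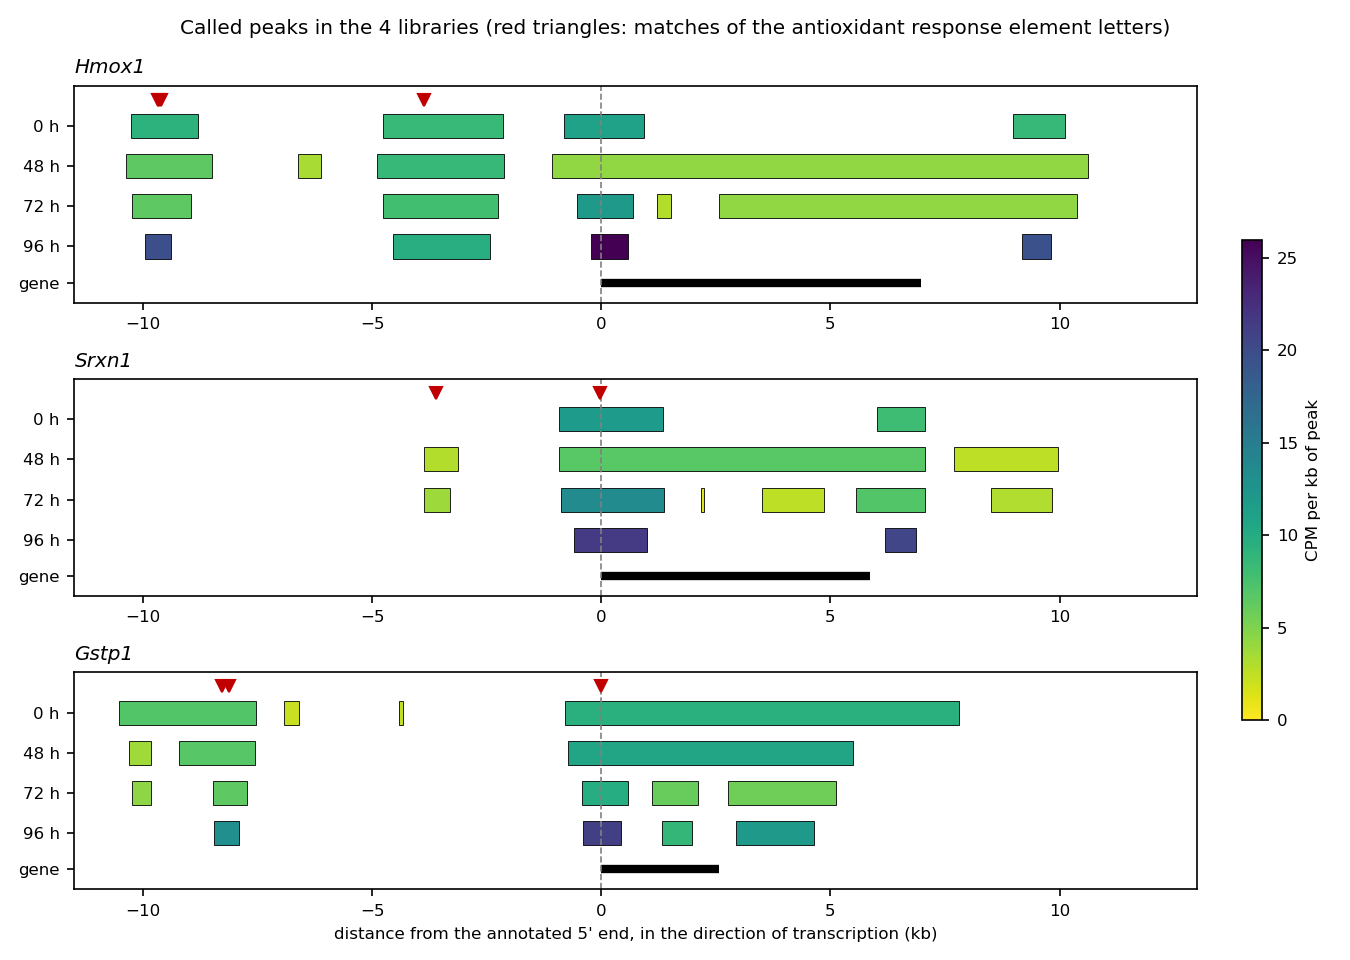
Called peaks around Hmox1, Srxn1 and Gstp1 in the 4 libraries, by distance from the annotated 5' end in kb, with the gene as a black bar. Colour gives CPM per kb of peak, and red triangles mark matches of TGANTCAGC. The Hmox1 body is covered at 48 and 72 h, the Srxn1 body by 1 peak at 48 h, and the single Gstp1 peak of 0 and 48 h is broken into short peaks at 72 and 96 h.

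Nqo1 encodes a quinone reductase, a further classical target. It lies at chr8:107388225-107403206 on the minus strand. Its level was 21.4 CPM at 0 h (20.3, 22.5), 18.0 at 48 h (16.5, 19.6), 13.1 at 72 h (11.2, 15.3) and 10.4 at 96 h (8.20, 12.96). The log2 ratio was -0.71 (-0.95, -0.47) at 72 h and -1.04 (-1.39, -0.71) at 96 h. The promoter peak was level, at 11.2, 10.1, 9.99 and 10.4 CPM, with log2 ratios of -0.14, -0.17 and -0.11. The fall in the window went with 1 upstream peak that straddled its edge. That peak had 8.98 CPM over 1429 bp at 0 h and 6.87 CPM at 48 h, and its shorter forms of 1062 bp (6.63 CPM) at 72 h and 455 bp (5.89 CPM) at 96 h no longer reached the window. Over merged regions the ratio was -0.12 (-0.32, 0.08) at 72 h and -0.39 (-0.67, -0.13) at 96 h, so neither passed 1.5-fold.

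The 2 subunits of glutamate-cysteine ligase, the rate-limiting enzyme of glutathione synthesis, stayed near their 0 h level. Gclc, the catalytic subunit (chr9:77754535-77794485, plus strand), had 283 CPM at 0 h (279, 287), 309 at 48 h (303, 315), 284 at 72 h (274, 293) and 242 at 96 h (231, 253). The levels of 0 and 72 h overlap, 48 h was highest and 96 h lowest, with log2 ratios of 0.13, 0.00 and -0.23. At 0 h a single peak of 50622 bp covered the gene and its flanks. At 48 h the window touched 1 peak of 41545 bp, at 72 h 4 peaks and at 96 h 16 peaks, and further peaks on the same ground, such as 1 of 8323 bp and 30.4 CPM at 48 h, lay outside it. Over merged regions, which count them, the ratios of Gclc were 0.26, 0.06 and -0.11, and with binarised counts they were 0.53, 1.61 and 1.79. Binarised counts cap the single peak of 0 h at 1 per nucleus, while the 4 and 16 peaks of 72 and 96 h each count. Because of this split the peak at the promoter had log2 ratios of -1.82 and -2.59 at 72 and 96 h, while the promoter in merged regions had ratios of 0.06 and -0.11. Gclm, the modifier subunit (chr3:122245557-122270732, plus strand), had 99.4, 100.7, 88.1 and 118.7 CPM, with log2 ratios of 0.02 (-0.04, 0.08), -0.17 (-0.27, -0.08) and 0.26 (0.15, 0.36), the same over merged regions. Its promoter peak, of 64.4, 52.0, 59.2 and 84.9 CPM, was lowest at 48 h and highest at 96 h. The log2 ratios were -0.31, -0.12 and 0.40, and the promoters of all genes, with medians of -0.18, -0.10 and 0.21, had the same order.

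Gclc and Hmox1 each held 4 matches of TGANTCAGC in peaks over the body and the 10 kb upstream, more than any other of the 10 genes. Those of Gclc are shown on the minus strand (GRCm38.p6, chromosome 9) with the match in capitals and 10 bases on either side, each with its distance from the 5' end.
Gclc -7952 bp (chr9:77746573-77746601): cttcctcaaaTGAATCAGCagtgagctta
Gclc -3790 bp (chr9:77750735-77750763): cgcctcaccgTGACTCAGCactctgcgcg
Gclc -2017 bp (chr9:77752508-77752536): tacacctgcaTGACTCAGCaggacagctg
Gclc 9165 bp (chr9:77763690-77763718): ctagcttcacTGAGTCAGCacccaggctg
The peak at -3790 bp was called in all 4 libraries at 29.9, 26.5, 21.2 and 26.6 CPM, highest at 0 h and lowest at 72 h. The peak at -7952 bp, of 3075 bp and 19.8 CPM at 0 h, was called in shorter pieces at 72 and 96 h. The piece with this match had 963 bp and 4.85 CPM at 72 h and 676 bp and 8.90 CPM at 96 h. A piece on the same ground at -9354 bp had 815 bp and 6.47 CPM at 72 h and 615 bp and 9.24 CPM at 96 h. The match at -2017 bp lay at the edge of the broad peak of 0 and 48 h and in no peak at 72 or 96 h. Over the body and 10 kb upstream, 8, 8, 7 and 7 of the 10 genes held TGANTCAGC in a peak at 0, 48, 72 and 96 h, beside 29.6%, 33.3%, 27.1% and 14.3% of all genes. Nqo1 and Keap1 held none, and Txnrd1 held it at 0 and 48 h. The 10 genes also had more peak there, a median of 14264.5 bp against 5530 bp for all genes at 0 h and 5378.5 against 2334 bp at 96 h. How far this length accounts for the share was not tested. TGANTCAGC and TGAGNNNGC were taken up, among other forms, after the data had been seen.

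Txnrd1 and Srxn1 belong to the thioredoxin system. Srxn1, sulfiredoxin, which restores overoxidised peroxiredoxins (chr2:152105516-152111376, plus strand), had 27.0 CPM at 0 h (25.7, 28.2), 53.5 at 48 h (51.0, 56.2), 44.8 at 72 h (41.1, 48.7) and 34.3 at 96 h (30.2, 38.7). No 2 of these intervals overlap, and the order was 48, 72, 96 and 0 h. Against 0 h, the log2 ratios were 0.99 (0.89, 1.09) for 48 h, 0.73 (0.59, 0.87) for 72 h and 0.35 (0.15, 0.54) for 96 h. As at Hmox1, the gain at 48 h came with a longer peak. A peak of 2278 bp at the promoter and 1 of 1052 bp beyond the 3' end at 0 h became 1 peak of 7990 bp over the same span. At 72 h the promoter peak was separate again, with 30.6 CPM over 2253 bp. Against the 0 h peak of nearly the same length (2278 bp), the scaled log2 ratio was 0.07. Over merged regions the ratios were 0.59 (0.50, 0.68), 0.34 (0.20, 0.47) and 0.44 (0.27, 0.60), so that 48 h was at the 1.5-fold line and the later times below it. Per kb of covered peak the levels at 48 and 72 h were below that of 0 h (6.70 and 8.67 against 11.8 CPM per kb). The promoter is shown from RefSeq (GRCm38.p6, chr2:152105274-152105523, plus strand), with both matches of TGAGNNNGC in capitals, the first on the minus strand and the second on the plus strand, because this peak was called at all 4 times.
Srxn1 promoter: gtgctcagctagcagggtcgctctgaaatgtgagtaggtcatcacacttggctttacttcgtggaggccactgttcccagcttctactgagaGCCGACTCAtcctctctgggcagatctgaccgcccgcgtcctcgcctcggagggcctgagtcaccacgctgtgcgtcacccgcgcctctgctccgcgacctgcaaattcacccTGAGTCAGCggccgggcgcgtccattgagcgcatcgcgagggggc
TGAGNNNGC is found in 17.6% of the 32851 RefSeq promoter windows of the same set. Entries for 8 of the 10 genes were in that set.

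Txnrd1, cytosolic thioredoxin reductase (chr10:82833951-82897712, plus strand), had 163 CPM at 0 h (160, 166), 188 at 48 h (183, 193), 109 at 72 h (103, 115) and 110.4 at 96 h (103, 118). The last 2 values overlap and lie below the first 2. The log2 ratios were 0.20 (0.16, 0.25), -0.58 (-0.66, -0.50) and -0.56 (-0.66, -0.46), just short of 1.5-fold, and over merged regions 0.20, -0.29 and -0.24. No peak lay within 1000 bp of its annotated 5' end in any library. Peaks at the other start sites of protein-coding transcripts had 55.8, 93.9, 43.5 and 61.1 CPM over 3622, 15404, 3366 and 2183 bp, so that the value of 48 h includes peak over the gene body. The window also holds Eid3, a gene within the Txnrd1 locus whose counts could not be separated.

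Of the 2 glutathione S-transferases, which join glutathione to electrophiles, Gstm1 varied little in its summed level and Gstp1 moved more than any other of the 10 genes. Gstm1 (chr3:108012255-108017973, minus strand) lay under 1 peak in every library. Its level was 107 CPM at 0 h (105, 109), 116 at 48 h (112, 120), 103 at 72 h (97.5, 109) and 136 at 96 h (128, 145). The intervals of 0 and 72 h overlap, and 96 h was highest, at a log2 ratio of 0.35 (0.25, 0.44), the same over merged regions. Binarised counts cap this peak at 1 per nucleus in libraries of unequal depth. On that scale the log2 ratios of Gstm1 were 0.27, 0.54 and 0.95, past 1.5-fold higher at 96 h. The peak shortened from 10379 bp to 8227 bp at the same time. A match of TGANTCAGC lay 4558 bp from the start, under this peak in every library, and is shown because it lay within the gene (GRCm38.p6, chr3:108013397-108013425, plus strand, match in capitals).
Gstm1 intragenic match: aagcacccagTGACTCAGCaaatcatgaa
A further match for Gstm1, at -7481 bp and outside the window, also lay in a peak called in every library. That peak had 18.7, 62.7, 14.8 and 5.49 CPM over 2943, 10899, 2562 and 522 bp at 0, 48, 72 and 96 h. Its log2 ratios to 0 h were 1.74 (1.64, 1.85), -0.34 (-0.57, -0.11) and -1.77 (-2.26, -1.32). Gstm1 and Gstp1 have near-identical neighbours in their families, and the placing of reads that copies share was not described in the sources at hand.

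Gstp1, the pi-class enzyme (chr19:4035407-4037985, minus strand), had 81.8 CPM at 0 h (79.7, 84.0), 66.3 at 48 h (63.5, 69.3), 16.0 at 72 h (13.9, 18.4) and 23.2 at 96 h (19.8, 26.9). No 2 intervals overlap. The log2 ratio to 0 h was -0.30 (-0.38, -0.23), -2.35 (-2.56, -2.15) and -1.82 (-2.05, -1.60). From 72 to 96 h it was higher by 0.53 (0.23, 0.83), and 96 h remained below 48 h. At 0 h 1 peak of 8614 bp ran from the promoter to 7816 bp downstream, and at 48 h 1 peak of 6203 bp. At 72 h there were 3 short peaks in its place, with 9.95 CPM over 1007 bp at the promoter, 6.07 CPM over 1010 bp and 13.5 CPM over 2346 bp beyond the 3' end. At 96 h the promoter peak had 17.5 CPM over 829 bp. Over merged regions, which hold the peak beyond the 3' end at every time, the ratio was -1.47 (-1.62, -1.32) at 72 h and -0.91 (-1.07, -0.75) at 96 h. Gstp1 was the only member past 1.5-fold lower on that scale. Per kb of covered peak the levels were 9.497, 10.7, 7.94 and 15.7 CPM per kb, and those of all genes were at a median log2 ratio of 1.26 at 96 h, where far less ground was called.

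The 2 neighbouring pi-class genes, named here after their values were seen, were also lower at 72 h. Gstp2 had 21.8, 13.1, 6.59 and 7.36 CPM at 0, 48, 72 and 96 h, and Gstp3 had 186, 104.9, 43.7 and 86.8 CPM. At 48 h, with log2 ratios of -0.73 and -0.83, both were already past 1.5-fold lower, while Gstp1 stood at -0.30. Over merged regions their log2 ratios at 72 h were -1.72 and -1.65. Genes of the whole table with the pattern most like that of Gstp1 over the 4 libraries, by Euclidean distance of centred log2 CPM, were Dennd6b (0.0881), Fbf1 (0.181) and Skiv2l (0.207). The promoter of Gstp1 is shown from RefSeq (GRCm38.p6, chr19:4037963-4038162, minus strand), because it lay in the short peak that was left at 72 and 96 h. Its match of TGAGNNNGC, in capitals, is also a match of TGANTCAGC and covers the annotated 5' end.
Gstp1 promoter: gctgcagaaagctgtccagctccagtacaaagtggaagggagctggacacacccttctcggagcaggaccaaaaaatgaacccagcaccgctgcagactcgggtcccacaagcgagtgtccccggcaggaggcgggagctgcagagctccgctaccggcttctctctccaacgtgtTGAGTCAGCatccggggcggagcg
Of the RefSeq promoter windows, 1.19% hold TGANTCAGC. A pair of further matches, at -8130 and -8287 bp, lay in the promoter peak of Gstp2, already counted for that gene above, which had 20.9, 11.3, 4.77 and 7.37 CPM.

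**Figure D3:**
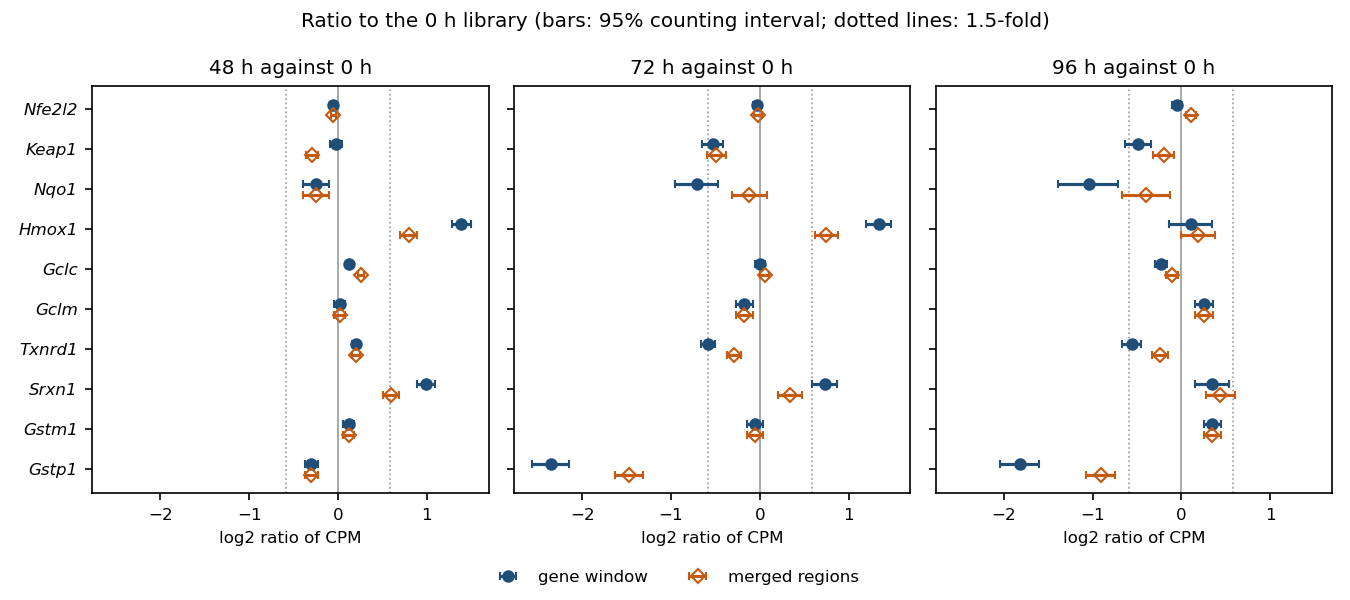
Log2 ratios of CPM at 48, 72 and 96 h to 0 h for the 10 genes, with 95% counting intervals, over the gene window (filled) and over merged regions (open). Dotted lines mark 1.5-fold. Hmox1 at 48 h stands at 1.38 in the window and 0.79 in merged regions, and Gstp1 at 72 h at -2.35 and -1.47.

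Around the 10 genes, a list of 72 further genes of the pathway was measured, and by summed CPM more of them were lower than higher at each time. At 48 h, 4 were at least 1.5-fold higher and 13 lower, beside 14.2% of all genes higher and 7.55% lower. At 72 h, 6 were higher and 25 lower (20.3% and 16.6% of all genes), and at 96 h, 3 were higher and 21 lower (19.1% and 17.3%). The median log2 ratio of the list was -0.21, -0.42 and -0.30, with that of all genes between -0.04 and 0.08. Over merged regions 3 were higher and 11 lower at 48 h (12.7% and 6.21% of all genes), 4 and 22 at 72 h (20.2% and 13.6%) and 4 and 16 at 96 h (19.4% and 12.3%). Per kb of covered peak, 1 was higher and 4 were lower at 48 h (1.15% and 8.49%), 4 and 4 at 72 h (10.8% and 1.98%) and 60 and 0 at 96 h (93.3% and 0.0604%). On that scale all genes were themselves shifted, with medians of -0.21, 0.17 and 1.26. The medians of the list were -0.15, 0.10 and 1.06, above all genes at 48 h and below them at 72 and 96 h. Near-equal peaks, which 59, 44 and 5 of the genes had, gave 1 and 5 at 48 h (4.28% and 1.34%), 1 and 9 at 72 h (10.2% and 6.92%) and 1 and 1 at 96 h (25.8% and 7.25%). The thioredoxin and peroxiredoxin genes had the lowest medians at 48 and 72 h (-0.50 and -0.85 over 9 genes), with 5 of 9 past 1.5-fold lower at 72 h. The 10 regulators had 2 lower and none higher at each time, Mafg at all 3 and, beside it, Rbx1 at 48 h and Maff at 72 and 96 h. Mafg, which encodes a small MAF partner of NRF2, had 154.9, 86.7, 85.5 and 96.1 CPM at 0, 48, 72 and 96 h, with the same log2 ratios in the window and over merged regions.

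Txnip, the inhibitor of thioredoxin, was among the 3 furthest falls at each time. It had 148.5 CPM at 0 h and 46.6, 25.9 and 22.6 CPM at 48, 72 and 96 h. At 48 h, when its covered length was 10574 bp against 10685 bp at 0 h, the log2 ratio was -1.67 in the window and -1.55 at peaks of near-equal length. Over merged regions it was -2.03 at 72 h and -2.04 at 96 h. The other falls among the 3 furthest at each time were smaller over merged regions. Txnrd2, mitochondrial thioredoxin reductase, had a ratio of -2.78 at 72 h and -2.46 at 96 h in the window, and -0.67 and -0.21 over merged regions. Gstt3 had -2.41 and -2.87, and -0.86 and -0.71 over merged regions. At 48 h Gstt2 was at -1.25 (-0.79 over merged regions) and Gsto1 at -1.22 (-0.38).

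The rises were fewer. Prdx1, a peroxiredoxin, went from 87.5 to 147.6 CPM at 48 h, a log2 ratio of 0.75 on both scales, and stood at 31.3 CPM at 96 h. Gstm3 went from 19.2 to 61.4 CPM at 48 h, with 1.68 in the window and 0.62 over merged regions. Mgst2 was low but higher at 48 h and 72 h, with 4.16, 7.26 and 12.2 CPM at 0, 48 and 72 h. Its peaks covered 1258, 2402 and 3039 bp, and per kb the log2 ratios were -0.13 and 0.28. At 72 h Mgst3 stood at 0.83 in the window and 0.32 over merged regions, and Me1, malic enzyme and a source of NADPH, at 0.71 on both. Both rises came with more covered peak, and per kb the ratios were -0.44 for Mgst3 and 0.10 for Me1. The peaks of Me1 covered 44971 bp against 29601 bp at 0 h. Its ratio was -0.11 at near-equal peaks and -0.40 at the promoter. At 96 h Slc7a11, the cystine transporter that feeds glutathione synthesis, was at 36.4 CPM against 16.3 CPM at 0 h, a ratio of 1.16 although its peaks covered less ground (2798 against 4231 bp). Ggct and Abcb1a both stood at 0.65. The ratios of Mgst2, Slc7a11, Ggct and Abcb1a were the same over merged regions.

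Within each library, hepatocyte-like nuclei with at least 2000 counts were ranked by their counts at 8 pericentral against 8 periportal genes, and the upper and lower 1165, 1157, 1167 and 817 nuclei at 0, 48, 72 and 96 h were summed. The score rests on a median of 124, 57, 20 and 18 counts per nucleus. Of 6 genes held out of it as a check, all 6 kept the labelled direction in every library. The pericentral Oat stood at log2 ratios of 2.30, 1.70, 1.20 and 0.82, Cyp1a2 at 1.17, 0.93, 0.44 and 0.88 and Axin2 at 0.62, 0.49, 0.64 and 0.39. The intervals of Cyp1a2 at 72 h (-0.06, 0.95) and 96 h (-0.14, 1.96) held 0. The periportal Sds stood at -2.01, -1.74, -1.22 and -1.30, Pck1 at -0.30, -0.52, -0.56 and -0.66 and Aldh1b1 at -1.18, -0.72, -0.25 and -0.15. The intervals of Aldh1b1 at 72 h (-0.73, 0.23) and 96 h (-0.89, 0.60) also held 0. No member passed 1.5-fold in any library, beside 1.09%, 0.75%, 2.17% and 3.59% of all genes at least 1.5-fold higher in pericentral nuclei and 1.16%, 0.618%, 1.18% and 3.22% lower. Nfe2l2 was higher in pericentral nuclei in all 4 libraries. It had 459 against 349 CPM at 0 h, 411 against 376 at 48 h, 423 against 362 at 72 h and 402 against 363 at 96 h. The log2 ratios were 0.39 (0.35, 0.43), 0.13 (0.07, 0.19), 0.22 (0.12, 0.33) and 0.15 (0.01, 0.28). The upper quartile of all genes was 0.13, 0.14, 0.19 and 0.21, so that Nfe2l2 lay above it at 0 and 72 h and within the quartiles at 48 and 96 h. Gstm1 was higher in pericentral nuclei at 0 h, by 0.19 (0.11, 0.27), and at 48 h, by 0.25 (0.13, 0.36), and stood at -0.06 at 72 and 96 h with intervals that held 0. Hmox1 at 48 h was lower in pericentral nuclei, at 45.4 against 53.3 CPM and a log2 ratio of -0.23 (-0.41, -0.06), and its intervals in the other 3 libraries held 0. Gclc had 0.17 (0.12, 0.21) at 0 h, and at 48 and 72 h, with -0.11 (-0.18, -0.04) and -0.13 (-0.24, -0.01), was lower in pericentral nuclei. Pericentral nuclei were also deeper, with a median of 39488 against 33133 counts at 0 h, and the part of depth in these ratios was not tested. Of the 72 further genes, 2, 2, 0 and 1 were past 1.5-fold higher in pericentral nuclei at 0, 48, 72 and 96 h and none was lower. They were Gsta3 at 0 and 48 h, Gstm2 at 0 h (0.59), Abcc2 at 48 h (0.60) and Gstt3 at 96 h (0.67). Gsta3, an alpha-class glutathione S-transferase, had 247 against 135 CPM at 0 h (0.87) and 353 against 190 CPM at 48 h (0.89).

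**Figure D4:**
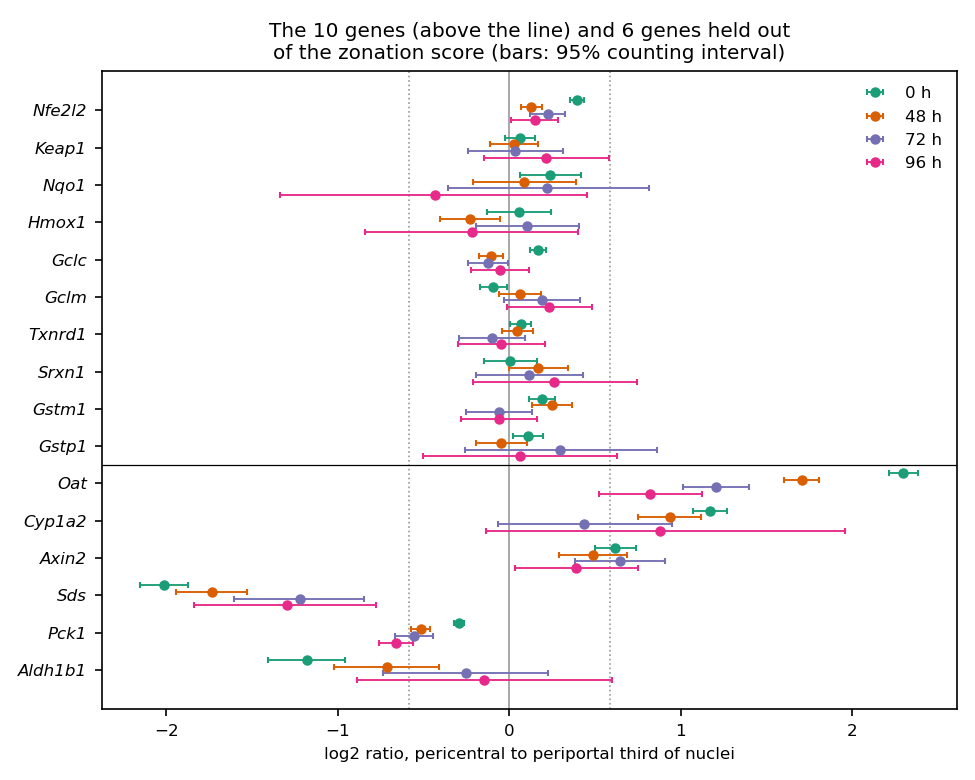
Log2 ratio of CPM in pericentral to periportal nuclei for the 10 genes (above the line) and 6 zoned genes held out of the score (below), by library, with 95% counting intervals. Dotted lines mark 1.5-fold. Nfe2l2 is at 0.39 at 0 h and above 0 in all 4 libraries, and no member reaches 1.5-fold.

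Nuclei in clusters with low hepatocyte markers, called hepatocyte-low here and given no cell type, made up 7.59%, 5.50%, 7.38% and 3.75% of nuclei, and were shallow (a median of 3499 against 28509 counts at 0 h). Hmox1 was more open in them at 0, 48 and 72 h, and at 96 h its interval, from 8 counts, held 0. At 0, 48, 72 and 96 h it had 33.3, 214, 159 and 31.7 CPM in hepatocyte-low nuclei and 19.1, 48.4, 45.7 and 20.6 CPM in hepatocyte-like nuclei. The log2 ratio was 2.15 (1.80, 2.47) at 48 h and 1.80 (1.37, 2.20) at 72 h, beside a median over all genes of 0.27 and 0.16 and 14.5% and 9.18% of genes at least 2-fold higher (13.4% and 13.2% at 0 and 96 h). At 0 h the ratio was 0.80 (0.25, 1.30), an interval that holds the median of all genes, 0.33. The hepatocyte-low class was not made up alike in the libraries. At 0 h it joined a cluster of 206 nuclei, with endothelial markers at a median log2 ratio of 1.60 to the rest and myeloid markers at 0.18, and a cluster of 96 nuclei, with -0.21 and 1.99. The single clusters of 48, 72 and 96 h had endothelial medians of 1.44, 1.06 and 0.16 and myeloid medians of 1.49, 1.69 and -1.25, the last over 2 detected markers, and Cdh5 and Clec4f were among the 10 leading genes at 48 h. Lymphoid markers, of which 1 to 4 were detected, had medians of -0.83 and 0.54 in the clusters of 0 h and of 1.30, 0.93 and 0.37 at 48, 72 and 96 h. Stellate and mesenchymal markers had medians of 1.101 and 0.07 in the clusters of 0 h and of 0.29, -0.22 and -0.57 at 48, 72 and 96 h. The myeloid medians rest on 2 to 5 detected markers. The part of these markers in the level of Hmox1 was not tested. In hepatocyte-like nuclei alone its log2 ratio to 0 h was 1.34 at 48 h and 1.26 at 72 h, close to the values over all nuclei. Myeloid markers, the genes of the class that holds Kupffer cells, summed to 51.7, 81.3, 75.03 and 63.3 CPM over all nuclei, with 4, 7, 7 and 2 of 8 above 0, Cd5l at 0 in every library and Clec4f and Adgre1 at 0 at 0 and 96 h. Most of each sum was Spi1, with 46.1, 65.9, 56.8 and 57.4 CPM, and the median marker had 0.35, 1.48, 1.84 and 0 CPM. Gclc was lower in hepatocyte-low nuclei in every library, at 147 against 285 CPM at 0 h and 112 against 311 CPM at 48 h. The log2 ratios were -0.96, -1.48, -1.25 and -0.69 (-1.43, -0.05) at 0, 48, 72 and 96 h. Only those of 48 and 72 h were past 2-fold lower, beside 8.85%, 10.8%, 7.82% and 8.49% of genes at least 2-fold lower at 0, 48, 72 and 96 h. Gstp1 was lower there at 0 h (34.8 against 82.5 CPM) and 48 h, and at 72 h stood at 31.5 against 15.6 CPM with an interval that held 0. In hepatocyte-like nuclei alone Gstp1 had log2 ratios of -2.41 at 72 h and -1.82 at 96 h. Nqo1 had 37.9 against 21.2 CPM at 0 h, a log2 ratio of 0.84 (0.33, 1.31), and 0.96 (0.04, 1.74) at 48 h. Both intervals hold the all-gene medians, 0.33 and 0.27, that of 0 h only just (lower bound 0.330, median 0.332). Srxn1 had 0.90 (0.46, 1.31) at 0 h. The intervals of Srxn1 at 48, 72 and 96 h and those of Nqo1 at 72 and 96 h held 0. Clusters were made from these same nuclei, so the comparison is a description.

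**Figure D5:**
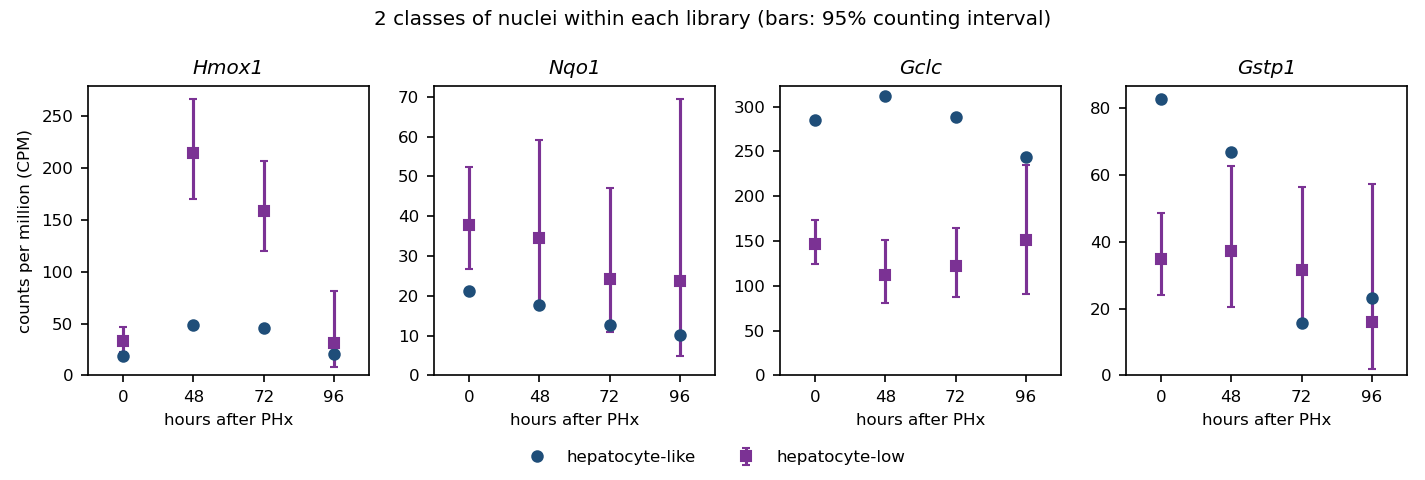
Level of Hmox1, Nqo1, Gclc and Gstp1 (CPM, from 0) in hepatocyte-low nuclei (squares, with 95% counting intervals) and hepatocyte-like nuclei (circles) of each library. Hmox1 reaches 214 CPM in hepatocyte-low nuclei at 48 h against 48.4 CPM in hepatocyte-like nuclei.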

How the data were processed

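The 4 libraries were deposited as whole-number counts of cut sites per peak and barcode, which the authors made with Cell Ranger ATAC (version 1.1.0 per the file headers, mm10 per the submitters' processing notes), calling peaks in each library. Between 87.3% and 88.6% of counts were even, so intervals used counts divided by 2. The deposited peak positions and barcodes are the other values used. Genes came from GENCODE vM21 and sequences from RefSeq and the GRCm38.p6 genome. Counts of barcodes with at least 1000 counts were summed over peaks touching the gene body plus 2 kb upstream, or 1000 bp on either side of the 5' end, as CPM. Intervals are exact Poisson or conditional binomial at 95%, covering counting error only. Near-equal peaks overlapped reciprocally by at least 80%. Clusters used LSI (30 components), 30 neighbours and Leiden at resolution 0.5 (leidenalg 0.10.2, scikit-learn 1.9.0, scipy 1.17.1, Python 3.11.15). Those with a median hepatocyte marker log2 ratio below -1 were hepatocyte-low. No doublet caller was run. Interval code was tested on simulated data. Members and lists were chosen with earlier results of these data known. Named by rule were all members, the 3 furthest rises and falls of the pathway list past 1.5-fold per comparison, and the 3 genes most like the member of widest range. Other pathway genes named, such as Mafg, Rbx1, Maff, Gstp2 and Gstp3, were chosen after their values were seen.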

Additional observations from a re-analysis of the deposited data

Results flagged for a closer look

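The zonal ratio of Gclc pointed in opposite directions in different libraries, with counting intervals on opposite sides of 0. Pericentral nuclei were higher at 0 h, at a log2 ratio of 0.17, and lower at 48 h (-0.11) and 72 h (-0.13). The difference between libraries was not tested, since each time point had 1 library, and the peak over Gclc also differed between them.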

How the results depend on the processing

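No paired analysis was possible because each time point had 1 library and no test was run. No library could be left out for the same reason. The merged regions were chosen after seeing the data. Of 473 recomputed values, 334 stayed within the counting interval or, for counts of genes, within 1.5 times, 130 moved further and 9 of genes past 1.5-fold turned direction. Every deposited barcode, a minimum of 3000 counts, leaving out the 5% of nuclei with the most counts and hepatocyte-like nuclei alone moved no log2 ratio of a member out of its counting interval. Leaving out those 5% still took the members past 1.5-fold at 96 h from 2 to 3, as did centring on the median of all genes, and hepatocyte-like nuclei alone took those at 72 h from 4 to 5, Txnrd1 being newly lower each time. The count of members past 1.5-fold (2, 4 and 2 at 48, 72 and 96 h) became 7 at 72 h and 5 at 96 h with binarised counts (31.7% and 30.6% of all genes). Nfe2l2 and Gclc were newly higher at both times, Gstm1 was newly higher at 96 h and Keap1 newly lower at 72 h. Per kb of covered peak the count was 1 at 72 h and 10 at 96 h, beside 12.8% and 93.4% of all genes. With the promoter alone it was 2 at 72 h (36.1%), and with 10 kb upstream 2 at 72 h and 1 at 96 h (36.2% and 35.4%). Over merged regions it was 2 at 72 h and 1 at 96 h. At near-equal peaks, which 5, 4 and 1 members had, it was 0 at each time (5.62%, 17.2% and 33% of all genes). At 2-fold it was 1 at 48 h and 2 at 72 h (8.14% and 17.3%). The pathway list (17, 31 and 24) gave 9 at 48 h with binarised counts (14.9% of all genes), 5, 8 and 60 per kb (9.64% at 48 h, 60 higher and 0 lower at 96 h), 6, 10 and 2 at near-equal peaks and 5, 11 and 15 at 2-fold (14.8% of all genes at 96 h, the other shares as above). Among members past 1.5-fold in the window, reversals per kb were Hmox1 (-1.36 and -1.07 at 48 and 72 h), Srxn1 (-0.82 and -0.45), Nqo1 (0.12 and 0.90 at 72 and 96 h) and Gstp1 (0.73 at 96 h). Members short of 1.5-fold turned sign per kb too, among them Keap1 (0.12 and 1.21 at 72 and 96 h), Txnrd1 (-0.16, 0.27 and 1.76) and Gclc (1.09 at 96 h). Hmox1 at the promoter alone was -0.41 at 72 h, and the Gclc promoter in merged regions 0.056 at 72 h. The 96 h library, the shallowest, left Nqo1, Srxn1, Hmox1 and Gstp1 with 4 to 8 counts in hepatocyte-low nuclei.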
